A study of Mus musculus with 6 samples.

Results

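Heparan sulfate and chondroitin sulfate proteoglycans are core proteins that carry long sulfated sugar chains, and 52 genes that encode such core proteins or the enzymes that build and sulfate their chains were examined in sciatic nerves of mice at postnatal day 9 (P9). The 52 genes were found by their mouse symbols among the 46603 genes of the deposited table. They comprised 6 glypicans, 4 syndecans, 7 core proteins of chondroitin sulfate proteoglycans and 35 enzymes. *Gpc2* was found on 2 rows, one of which GENCODE M21 names *Gm43720*. That row, with a mean of 0.278, was set aside.

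Libraries came from 3 *Ep400ΔPNS* nerve samples (labelled Ep400_cko) and 3 control samples (Ep400_ctrl), which the labels describe as biological replicates. *Ep400ΔPNS* mice carried a *Dhh::Cre* transgene, active in Schwann cells (SCs), together with the conditional *Ep400* allele, and the control libraries were labelled with the conditional allele and no Cre. The labels give all 6 a mixed 129SvJ/C57Bl/6J background, whereas the study's methods describe a C3H and C57Bl/6J one. Other cell types of the nerve keep *Ep400*, and whole-nerve RNA holds transcripts of all of them. Each value used here is the authors' mean over the 6 libraries of counts divided by size factors, in which *Ep400ΔPNS* and control nerves are joined. The authors' own columns comparing the genotypes were not used, so no difference between *Ep400ΔPNS* and control nerves is given. The loss of *Ep400* could not be checked either, since its mean of 4490 joins both genotypes.

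Each chain starts on a serine of the core protein with a short linker of xylose, galactose and glucuronic acid. It is then extended with alternating sugars into heparan or chondroitin, and sulfate groups are added during and after extension. The pattern of sulfation sets which growth factors, matrix proteins and receptors bind a chain. In rat SCs, syndecan-3 and glypican-1 are known as surface heparan sulfate proteoglycans, and the heparan sulfate proteoglycan perlecan is a constituent of the SC basal lamina.

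Levels were compared between genes per length, as the mean normalized count divided by the kilobases (kb) of all annotated exons of a gene. All 52 genes had a mean above 0 and 49 had a mean of at least 10, against 65.9% of annotated protein-coding genes. *Hs3st2*, *Hs6st3* and *Gpc5* were the 3 below 10. The median level of the 52 genes was 165 per kb, beside 90.8 per kb over the background used throughout, the 16937 annotated genes with a mean of at least 10. Of the 52 genes, 30 lay above that median, 8 above the 90th percentile of those genes and 5 below the 10th. These 5 include *Hs3st2*, *Hs6st3* and *Gpc5*, whose means below 10 keep them out of that background. Between the highest gene, *Gpc3*, and the lowest with a mean of at least 10, *Hs3st3a1*, levels spanned 1082-fold. The 52 genes together held 0.363% of the summed means. As the mean has no spread over libraries, neighbours in the order of levels could not be tested against each other.

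**Figure D1:**
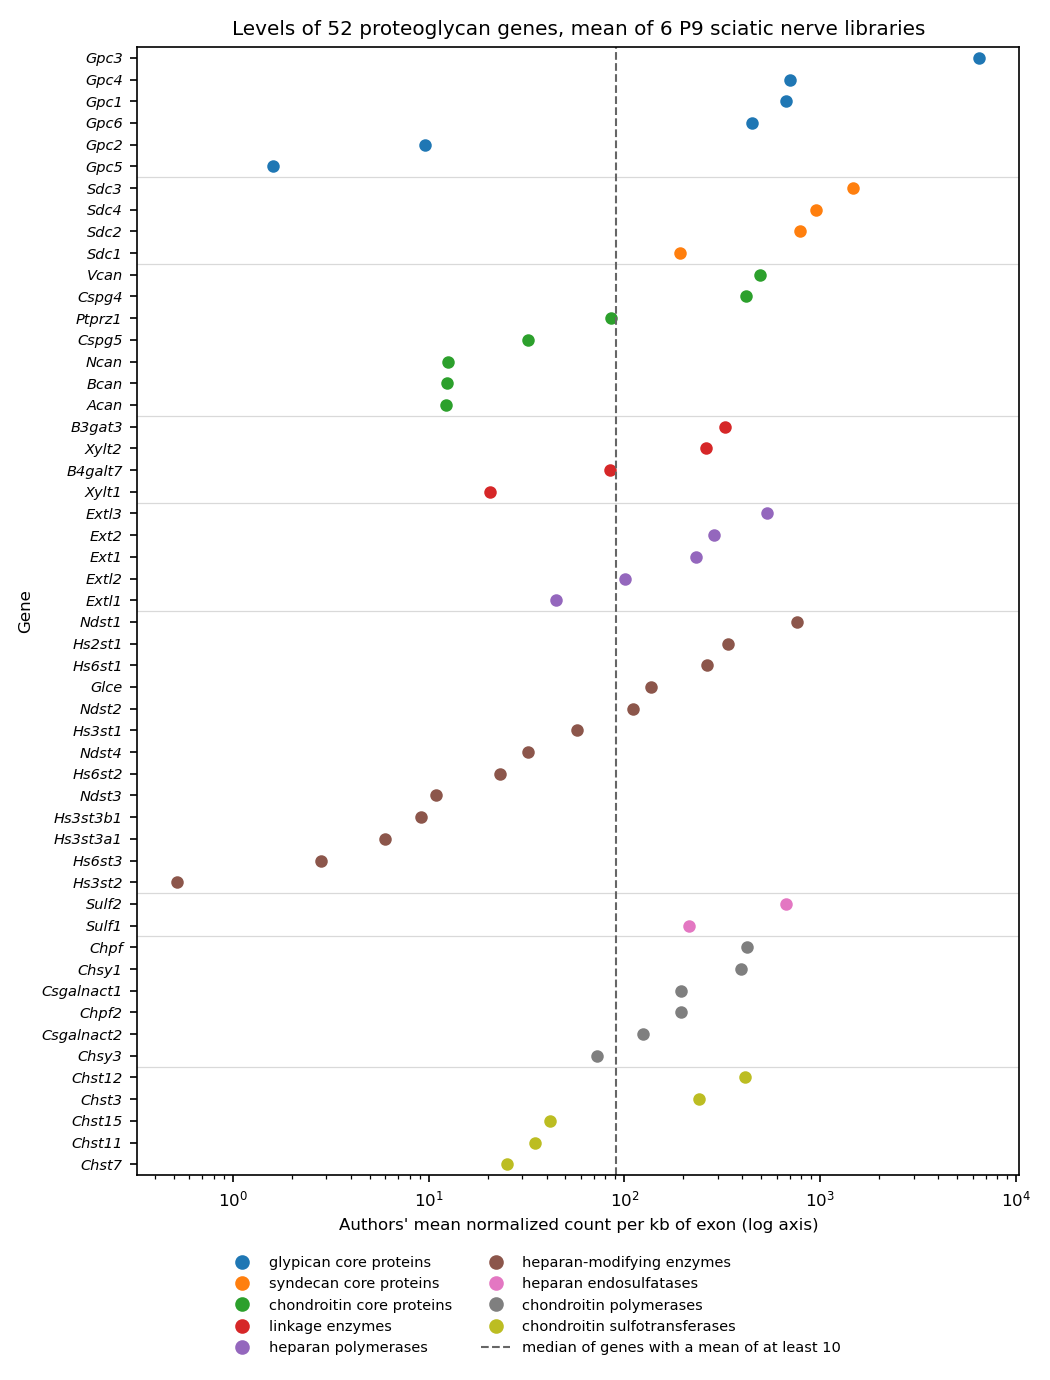
Mean normalized count per kb of exon (log axis) of the 52 genes, ordered by level within each role, with 1 point per gene for the authors' mean over 6 libraries and no error bar. The dashed line marks the median of 90.8 per kb over genes with a mean of at least 10. *Gpc3* stands apart at 6484 per kb, and glypicans spread over the widest range, down to 1.60 per kb.

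Glypicans are heparan sulfate proteoglycans held to the membrane by a lipid anchor. *Gpc3*, which encodes a regulator of growth and of hedgehog signalling, had a mean of 17442 and a level of 6484 per kb, at the 99.5th percentile of that background. This was 4.41 times the level of the next gene, *Sdc3*, and 33.3% of the summed levels of the 52 genes. *Gpc4*, *Gpc1* and *Gpc6* followed at 701, 665 and 450 per kb, an order that depended on the length used. With the longest transcript as the length, *Gpc1* (822 per kb) was above *Gpc4* (701) and *Gpc6* (697). Without division by length, *Gpc1* and *Gpc6* (means of 3431 and 2888) were both above *Gpc4* (1857). *Gpc2*, known from developing neurons, was at 9.61 per kb and *Gpc5* at 1.60 per kb, or 2.51 per kb with the longest transcript. Thus *Gpc3* held 78.0% of the summed glypican level and *Gpc4* 8.43%. The value of *Gpc2* is uncertain, since 55.6% of its exon bases are shared with *Gm43720* on the same strand. Reads from the shared bases may have been left out of the counts of either gene.

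*Gpc3* and *Gpc4* are neighbours on chromosome X of mm10, 107 kb apart on the minus strand with no protein-coding gene between them, and differed 9.26-fold in level. *Gpc5* and *Gpc6* are neighbours on chromosome 14, 400 kb apart on the plus strand, and both span more than a megabase (1433 kb and 1051 kb). *Gpc6* was 281 times the level of *Gpc5*. Neighbours in both pairs thus differed in level, although *Gpc4*, the lower gene of its pair, was itself at the 92.3rd percentile of the background.

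Syndecans cross the membrane and had the highest median level of any role, 868 per kb, with 4 of 4 genes above the background median. *Sdc3*, or N-syndecan, had a mean of 8797 and a level of 1469 per kb. *Sdc4*, which takes part in focal adhesions, was at 953 per kb and *Sdc2* at 783 per kb. *Sdc1*, best known from epithelia and plasma cells, was lowest at 193 per kb. Reads of *Sdc3* share exon bases with the antisense transcript *Gm26716*, whose mean of 18.4 was far below the 8797 of *Sdc3*.

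Core proteins of chondroitin sulfate proteoglycans fell into a high pair and a low remainder. *Vcan*, the large matrix proteoglycan versican, was at 493 per kb with a mean of 7124, and *Cspg4*, which encodes the NG2 surface proteoglycan of pericytes and glial precursors, at 416 per kb with a mean of 4969. *Vcan* held 46.3% and *Cspg4* 39.1% of this group's summed level, an order that turned with the longest transcript as the length (*Cspg4* 43.1%). *Ptprz1*, a receptor phosphatase of glia, was at 85.5 per kb (151 with the longest transcript, and then at the 55.3rd percentile in place of the 48.3rd) and *Cspg5*, or neuroglycan C, at 32.3 per kb. The hyaluronan-binding lecticans *Ncan*, *Bcan* and *Acan*, prominent in the matrix around neurons of the central nervous system, lay close together at 12.6, 12.4 and 12.3 per kb, at the 13.3rd, 13.1st and 13.0th percentile. Versican was the one lectican of high level in these nerves.

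The 4 linkage enzymes serve both kinds of chain. Xylosyltransferases attach the initial xylose, and *Xylt2* was 12.7 times the level of *Xylt1* (260 and 20.5 per kb). The galactosyltransferase gene *B4galt7* was at 84.6 per kb and the glucuronyltransferase gene *B3gat3*, which completes the linker, at 327 per kb, or 527 per kb with the longest transcript.

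Heparan chains are begun by Extl3 and extended by a complex of Ext1 and Ext2. *Extl3* was at 533 per kb, *Ext2* at 286 per kb and *Ext1* at 231 per kb, so that the 2 partners of the complex were within a ratio of 0.809 (*Ext1* over *Ext2*). With the longest transcript as the length, this ratio was 0.433 and *Ext2* led the family. *Extl2* and *Extl1*, whose products can also add sugars to such chains, were lower at 101 and 44.5 per kb.

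Enzymes that modify heparan comprised 13 genes between 0.522 and 758 per kb, with a median of 32.2 per kb. In each of their families one gene held most of the summed level. *Ndst1*, a deacetylase and sulfotransferase that opens the modification of heparan, held 83.1% of its family at 758 per kb, and *Ndst2*, its relative known from mast cells, held 12.1% at 111 per kb. *Ndst4* had a mean of 377 and a level of 32.2 per kb, which was 2.93 times that of *Ndst3* (11.0 per kb). With the longest transcript as the length, *Ndst4* was at 50.8 and *Ndst3* at 19.5 per kb. *Ndst1* was 23.6 times the level of *Ndst4* per kb of all exons.

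*Hs6st1*, which sulfates the glucosamine of heparan, held 91.1% of its family at 266 per kb, beside 23.2 per kb for *Hs6st2* (41.6 with the longest transcript) and 2.82 per kb for *Hs6st3*. *Hs2st1*, which sulfates its uronic acid, was at 337 per kb and *Glce*, the epimerase that acts before it, at 137 per kb. Hs3st enzymes add a rarer sulfate. *Hs3st1* held 78.5% of this family, although at 57.2 per kb it was at the 38.7th percentile of the background. *Hs3st3b1* (9.19 per kb) and *Hs3st3a1* (5.99 per kb) lie 513 kb apart on opposite strands of chromosome 11 and encode enzymes with near-identical catalytic domains, so unique mapping may have left out reads of either. Of the exon bases of *Hs3st3a1*, 32.9% overlap *F930015N05Rik* on the other strand (mean 2.12). The value of *Hs3st3a1* is thus uncertain if counting did not use strand. *Hs3st2*, known from brain, was lowest of all at 0.522 per kb.

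Endosulfatases remove sulfate from finished heparan chains outside the cell. Both were abundant, *Sulf2* at 666 per kb with a mean of 3910 and *Sulf1* at 214 per kb with a mean of 2415. Their ratio was 3.11, and 1.98 with the longest transcript as the length. *Sulf2* shares 154 exon bases on the other strand with *Ncoa3*, which had a mean of 2198.

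Chondroitin chains are extended by the Chsy and Chpf proteins and started by Csgalnact enzymes. *Chpf* and *Chsy1* were at 421 and 392 per kb, an order that turned without division by length (*Chsy1* 33.6% of the family), *Chpf2* was at 194 per kb and *Chsy3* at 72.4 per kb (112 with the longest transcript). *Csgalnact1* and *Csgalnact2* were at 194 and 125 per kb. The value of *Chpf2* is uncertain, since 44.1% of its exon bases overlap *Smarcd3* on the other strand (mean 656). The library kit kept strand, but the sources used here do not say whether counting used it. Of the 52 genes, 8 had exons on the other strand of a gene with a mean above 0. Among them were also *Gpc1* (18.9% of exon bases, *Ankmy1*, mean 5.34), *Hs6st1* (8.07%, *Gm37335*, mean 1.77), *B4galt7* and *Chsy1*. *Chst15* (17.9%) and *Hs3st2* (9.05%) overlap antisense transcripts for which no mean was given.

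Of the sulfotransferases of chondroitin, *Chst12* and *Chst3* were at 414 and 240 per kb and held 54.8% and 31.8% of their group, whereas *Chst3* led (50.8%) without division by length. *Chst15*, *Chst11* and *Chst7* were all below the background median at 41.7, 35.0 and 25.3 per kb. *Chst11* and *Chst12* encode enzymes that sulfate the same carbon of galactosamine, and *Chst12* was 11.8 times the level of *Chst11*.

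**Figure D2:**
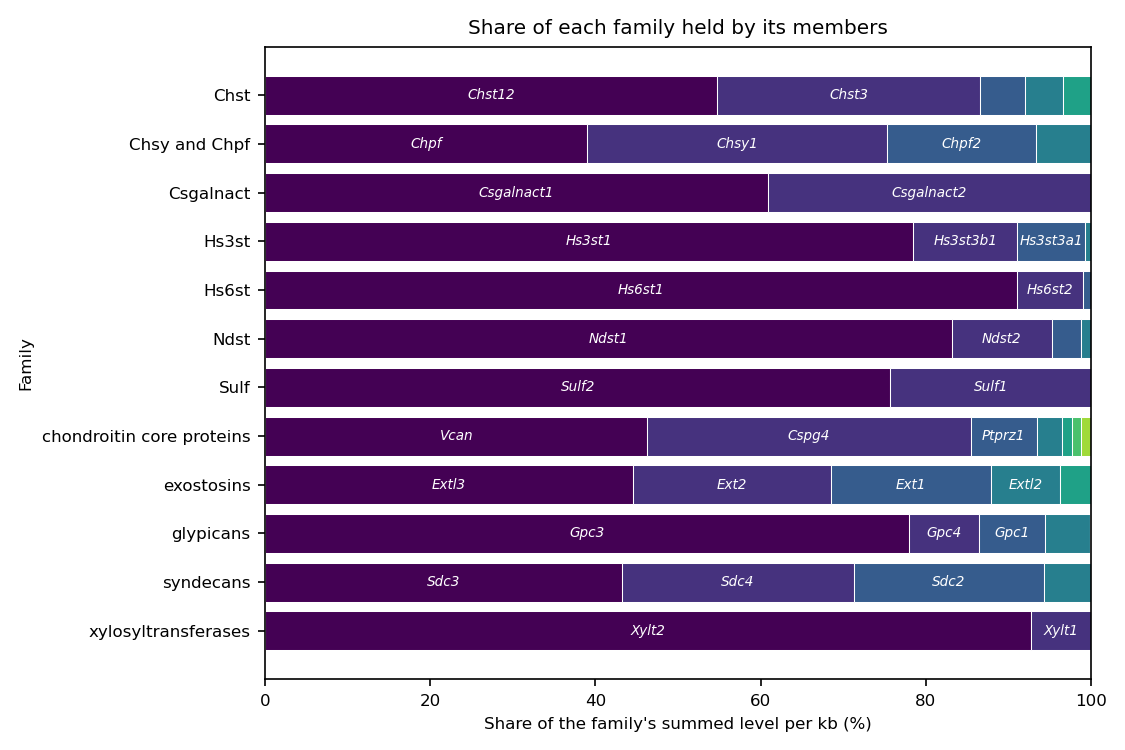
Share of each family's summed level per kb (percent, horizontal axis) held by its members, stacked from highest to lowest, with names on segments of at least 7%. A single gene held over 75% in the glypican, Ndst, Hs6st, Hs3st, Sulf and xylosyltransferase families, and 39.0% to 60.9% in the others. The leading gene changed with the longest transcript in the exostosins and chondroitin core proteins, and without division by length in the Chst and the Chsy and Chpf families.

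Summed over core proteins, glypicans, syndecans and chondroitin sulfate core proteins held 42.7%, 17.5% and 5.47% of the summed level of the 52 genes. Most of the glypican part was *Gpc3*, which alone held 33.3%. The enzymes that modify heparan held 9.00%, the heparan polymerases 6.15% and the endosulfatases 4.53%. The chondroitin polymerases held 7.19%, the chondroitin sulfotransferases 3.89% and the linkage enzymes 3.56%. Because RNA of whole nerves was measured, these sums do not tell which cells expressed the genes, and fewer cells of a type and less RNA per cell cannot be told apart.

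Further genes of the pathway, which are not among the 52, were at high levels in part. Of 12 other core protein genes, 12 had a mean of at least 10. *Hspg2*, which encodes perlecan, was at 14326 per kb, *Dcn* (decorin) at 8191 per kb, *Bgn* (biglycan) at 2951 per kb and *Tgfbr3* (betaglycan) at 1716 per kb. *Hspg2* was thus above *Gpc3*, the highest of the 52. All 9 genes of linkage and precursor supply had a mean of at least 10. The sulfate donor synthase gene *Papss1* led them at 1113 per kb, and the phosphatase gene *Pxylp1* was lowest at 28.3 per kb. Among 8 other modifying enzymes, 5 had a mean of at least 10. *Ust*, *Dsel* and *Dse*, whose products form or sulfate dermatan, were at 494, 411 and 211 per kb, and *Hs3st5* and *Chst13* at 1.76 and 0.314 per kb. Of 11 degradation genes, 10 had a mean of at least 10, with the lysosomal sulfatase gene *Ids* highest at 432 per kb and *Hpse2* lowest at 0.267 per kb. Of 8 genes for hyaluronan synthases, link proteins and the lectican partner tenascin-R, 6 had a mean of at least 10, and *Has2* at 212 per kb was the one above the background median.

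Markers of the labelled tissue were present. The SC markers *Egr2*, *Sox10* and *Prx* were at 1302, 3752 and 15196 per kb, and 4 fibroblast markers at 677 to 99007 per kb. Markers of neuronal cell bodies were at 0.827 to 6.04 per kb. Markers of other cells were also found, at 108 to 550 per kb for macrophages, 165 to 1309 per kb for endothelium, 683 and 1571 per kb for pericytes, 603 to 1124 per kb for perineurium, 250 to 4519 per kb for skeletal muscle, 108 and 466 per kb for adipocytes and 938 and 7859 per kb for blood. Their part in the levels of the 52 genes was not tested.

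Promoter windows of RefSeq on GRCm38.p6, from 250 bases before to 50 after an annotated start, were read for 40 of the 52 genes. Such a start need not be the outermost one in GENCODE M21. The windows of *Ndst3*, *Extl1* and *Hs3st1* lay kilobases inside the gene. A window counted as CpG-dense when its GC content was at least 50% and the dinucleotide CG stood at 0.6 or more of the number expected from its C and G. Of the 40 genes, 33 (82.5%) had a CpG-dense window, beside 36.0% of all 27025 genes in that table. Those 27025 genes were not filtered by gene type or level, and so are not matched to the 40 genes. Of the 10 genes with a mean under 100, 8 had a CpG-dense window, against 25 of the 30 with higher means. The 7 without one were *Sdc1*, *Ndst3*, *Extl1*, *B4galt7*, *Chst7*, *Vcan* and *Ncan*, although for *Ndst3* and *Extl1* the outermost start was not read. The windows of the highest gene, *Gpc3*, and of *Hs6st3* and *Hs3st2*, both among the 3 with means under 10, are shown because genes at both ends of the range of levels had such windows, with each CG in capitals. They hold 30, 41 and 27 of them, beside a median of 7 over all windows. The *Gpc3* window lies at chrX:52613925-52614224 (minus strand), that of *Hs6st3* at chr14:119138015-119138314 (plus strand) and that of *Hs3st2* at chr7:121392046-121392345 (plus strand).
Gpc3: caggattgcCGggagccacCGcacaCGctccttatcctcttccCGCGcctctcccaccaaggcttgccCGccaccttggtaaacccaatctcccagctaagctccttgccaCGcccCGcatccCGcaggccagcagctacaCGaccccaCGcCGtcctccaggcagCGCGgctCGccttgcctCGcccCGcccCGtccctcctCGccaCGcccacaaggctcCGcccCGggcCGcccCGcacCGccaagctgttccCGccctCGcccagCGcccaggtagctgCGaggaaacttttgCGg
Hs6st3: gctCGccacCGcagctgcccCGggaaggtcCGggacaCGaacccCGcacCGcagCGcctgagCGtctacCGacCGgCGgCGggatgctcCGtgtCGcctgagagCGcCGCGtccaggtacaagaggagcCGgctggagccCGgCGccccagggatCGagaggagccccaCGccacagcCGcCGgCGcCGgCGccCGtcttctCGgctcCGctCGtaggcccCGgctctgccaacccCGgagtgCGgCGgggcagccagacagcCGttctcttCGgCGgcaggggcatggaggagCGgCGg
Hs3st2: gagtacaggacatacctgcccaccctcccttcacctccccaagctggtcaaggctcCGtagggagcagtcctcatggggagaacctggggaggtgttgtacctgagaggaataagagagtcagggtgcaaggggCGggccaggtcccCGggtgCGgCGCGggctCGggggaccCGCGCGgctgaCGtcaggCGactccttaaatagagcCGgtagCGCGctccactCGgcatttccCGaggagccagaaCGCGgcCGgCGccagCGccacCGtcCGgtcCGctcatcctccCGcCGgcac

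**Figure D3:**
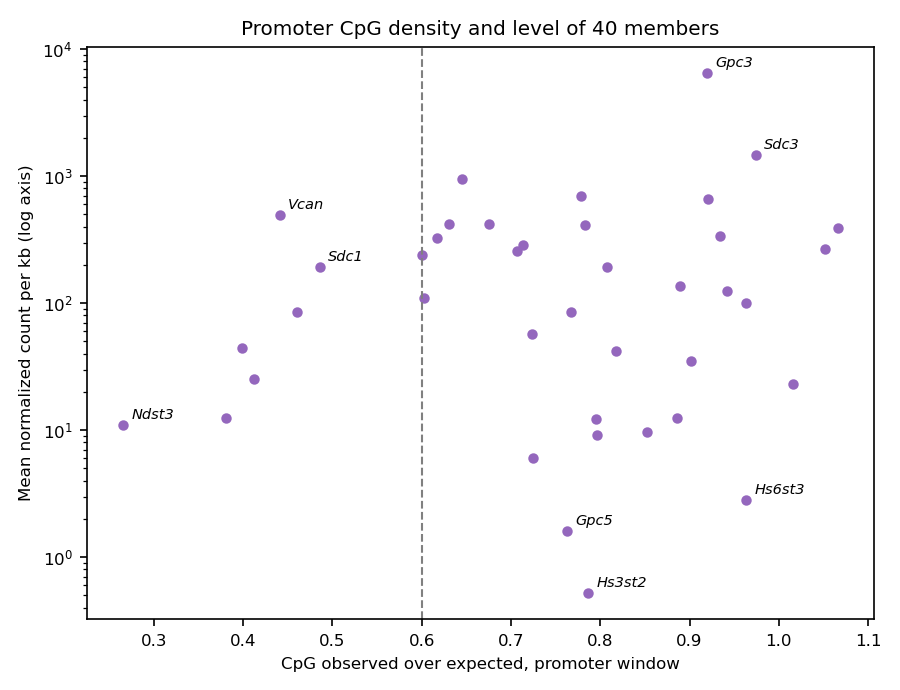
CpG observed over expected in the promoter window (horizontal axis, the highest window of a gene) against the mean normalized count per kb (log axis) of 40 genes, 1 point per gene. The dashed line marks 0.6. *Gpc3* at 6484 per kb and *Hs3st2* at 0.522 per kb both lie to its right.

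For genes with low means, the reads of the 6 libraries could be read out of the mean itself. A gene with 1 read in 1 library has a mean that depends only on that library's size factor, and 6 such values recurred in 126 to 528 genes each. They gave size factors of 0.908 to 1.20, so that the deepest library had 1.32 times the depth of the shallowest on this scale. The means of 8 genes were then split into the one set of whole reads that fits all printed digits. The 6 libraries found this way, numbered by falling size factor, carry no genotype and were not compared as groups. The 44 other genes, from a mean of 90.5 upward, were not split, *Ndst4* among them.

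*Hs3st2* rested on 10 reads in all, 4 in library 1 and 6 in library 3, with 0 reads in the other 4 libraries. The exact 95% Poisson interval of this total, which covers counting error only, was 4.80 to 18.4 reads. *Hs6st3* had 28 reads, with 2, 2, 12, 3, 3 and 6 in libraries 1 to 6, and *Gpc5* had 41 reads, with 4, 2, 7, 6, 6 and 16. Both genes were thus counted in every library, with the largest part of the normalized reads of *Hs6st3* (43.1%) in library 3 and of *Gpc5* (41.3%) in library 6.

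Of the pair on chromosome 11, *Hs3st3a1* had 23, 15, 23, 18, 35 and 26 reads and *Hs3st3b1* had 16, 32, 34, 41, 97 and 42 reads in libraries 1 to 6. Library 5 was highest for both, and the normalized reads of *Hs3st3b1* ranged from 13.3 to 104 with a median of 38.9. *Bcan* had 33, 50, 15, 98, 63 and 41 reads, or 15.5 to 102 normalized reads, highest in library 4. *Chst7*, with 44, 44, 43, 51, 69 and 78 reads, ranged from 36.6 to 85.9 normalized reads. *Gpc2* had 53, 62, 62, 25, 28 and 23 reads, or 25.3 to 64.2 normalized reads. The highest library differed between these genes, being library 3, 4, 5 or 6.

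**Figure D4:**
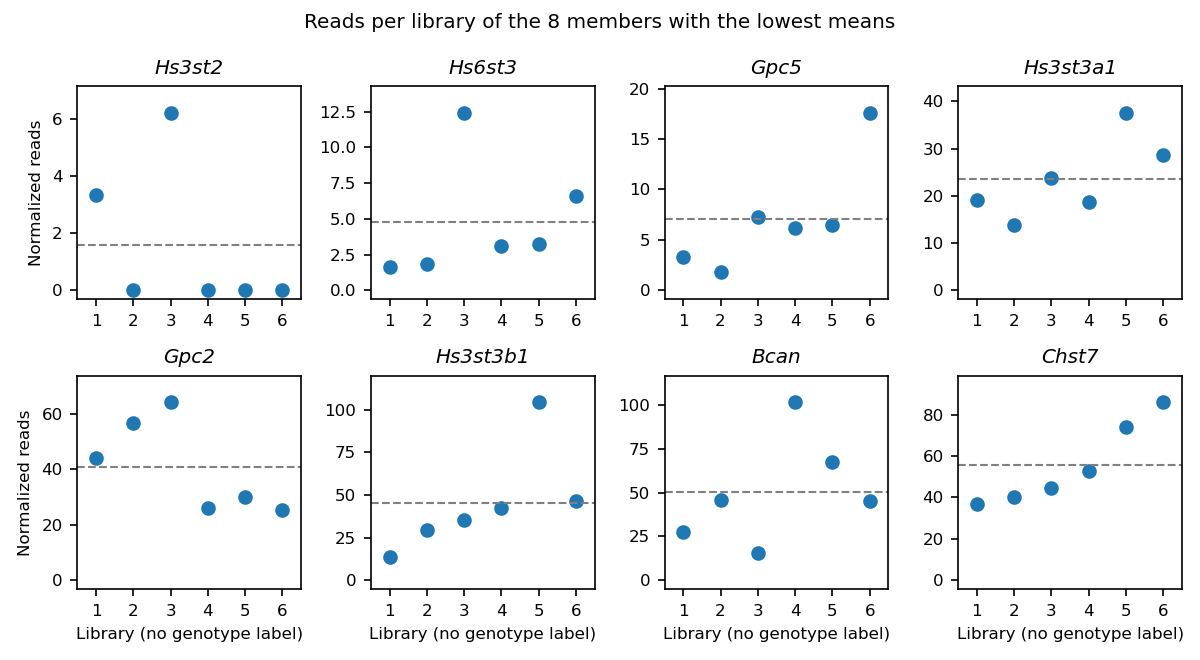
Normalized reads (reads divided by the size factor, vertical axis, scaled per panel) in each of 6 libraries without genotype label (horizontal axis, numbered by falling size factor) for the 8 genes whose means could be split, 1 point per library. The dashed line is the authors' mean. *Hs3st2* has reads in 2 libraries, and the other 7 genes have reads in all 6.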

How the data were processed

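RNA of 3 *Ep400ΔPNS* and 3 control samples of P9 sciatic nerve was sequenced by the authors from stranded mRNA libraries, and uniquely mapping reads were counted per Ensembl gene. The submitters' processing notes name STAR 2.5.1, HTSeq and DESeq2, with mm10 as the build. The deposited signal column used here has raw in its header but is the authors' mean over 6 libraries of counts divided by size factors. The 6 other value columns hold the authors' own comparison of *Ep400ΔPNS* with control (log2 fold change, its standard error, a Wald statistic, p-values and a linear fold) and were not used. A count model per library had been planned and was not run, since the column used joins the libraries. The summed means were 25.6 M, and the depth of single libraries is known only relative to each other.

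Means were divided by exon lengths of GENCODE M21 (mm10), to which 46091 of 46603 gene IDs were matched. The header of the gene IDs and the study's methods name different Ensembl releases, and neither names GENCODE M21. The exons that were counted may thus differ from those behind the lengths and overlaps given here. Unit values present in at least 100 genes gave the size factors. A mean was split by an exhaustive search where at most 0.05 solutions were expected by chance. That limit and the tolerance were set after seeing which means gave several solutions, and the description of promoters, its thresholds and the windows shown were also chosen after seeing the levels. On data simulated with these same size factors, 99 of 99 means of up to 56 were split correctly. The simulated means were drawn evenly on a log scale, so few are expected near 56, where chance solutions are most likely. Such data cannot show an error in the size factors themselves. All 52 genes are named, and other genes only from written lists, of which a marker is not reported here. The members and lists were chosen with earlier results of these data known. Alternatives were other minimum means, the longest transcript as length, no length, other background genes and a tolerance 10 times wider. Python 3.11.15, numpy 2.4.6, scipy 1.17.1 and matplotlib 3.10.9 were used.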

Additional observations from a re-analysis of the deposited data

How the results depend on the processing

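No paired analysis was possible because the column used joins all 6 libraries, and fits that leave out a replicate, use another normalization or drop the filter on low counts were not run for the same reason. With the longest transcript as the length, the leading gene changed to *Ext2* among exostosins (37.4%) and to *Cspg4* among chondroitin core proteins (43.1%). Without division by length it changed to *Chst3* in the Chst family (50.8%) and to *Chsy1* in the Chsy and Chpf family (33.6%). The other leading genes were kept. With the longest transcript, the shares of these that moved were 53.0% (*Chst12*), 40.8% (*Chpf*), 66.0% (*Csgalnact1*), 82.7% (*Hs3st1*), 89.9% (*Hs6st1*), 66.4% (*Sulf2*) and 46.9% (*Sdc3*). Without division by length, they were 59.3% (*Csgalnact1*), 64.5% (*Hs3st1*), 88.8% (*Hs6st1*), 86.4% (*Ndst1*), 61.8% (*Sulf2*), 51.4% (*Vcan*), 41.8% (*Extl3*), 68.0% (*Gpc3*), 59.8% (*Sdc3*) and 83.9% (*Xylt2*). The median percentile of the 52 genes was 64.8, and 80.4 among all genes with a mean above 0, 59.7 among protein-coding genes and 62.0 with the longest transcript. With that length, levels were 1 to 2.02 times as high and 5 genes moved by more than 3 ranks. The number of genes detected was 52 at a minimum mean of 1 and 46 at 50. With a tolerance 10 times wider, 7 of the 8 split means kept a single solution, and *Bcan* had 2.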
